A study of Mus musculus with 16 samples.

Results

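The clustered protocadherins are cell adhesion receptors whose genes lie side by side in an alpha, a beta and a gamma cluster. Members were taken by their gene symbol: every probe set whose platform symbol begins with Pcdha, Pcdhb or Pcdhg and goes on with a letter or a number. This gave 20 of 19572 probe sets with a symbol, and all 20 were beta genes, Pcdhb1 to Pcdhb20. The platform table used here named 0 probe sets for alpha and 0 for gamma genes, against 14 and 22 such genes in the RefSeq mouse gene table, and it named none for Pcdhb21 and Pcdhb22. What follows is therefore an account of the beta cluster, and the alpha and gamma clusters were not analysed here.

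Clariom S mouse arrays measured RNA of olfactory mucosa cells from 24 S100a5-tauGFP mice of both sexes, 7 to 12 weeks old. The fluorescent reporter is tied to S100a5, a calcium-binding protein of olfactory sensory neurons, so a cell sorter could part reporter-positive from reporter-negative cells. Each mouse spent 40 h alone in a chamber flushed with 3.1 L/min of clean air, and from 26 h on it received a 10 s pulse every 20 min, of citrus accord at 100% or of filtered air as the vehicle. The 4 groups were GFP-positive and GFP-negative cells of citrus-exposed mice and the same pair of gates from vehicle mice, with 4 arrays each, and every array held cells pooled from 3 mice. All groups carried the reporter, so no cells without it were compared. The GFP-negative samples hold whatever reporter-negative cells of the mucosa passed the sort, neurons or not.

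Each beta protocadherin gene is a single exon that encodes a transmembrane protein with extracellular cadherin repeats, and it lacks the shared constant exons of the alpha and gamma genes. Clustered protocadherins bind like with like between cells, and a neuron turns on only a part of the set, through promoter choices that involve CTCF and cohesin. In olfactory sensory neurons the clusters are known for a role in the wiring of axons into glomeruli. In the RefSeq order of the mouse genome the 20 measured genes follow one another on chromosome 18 with no other beta gene between them. Pcdhb1 comes first in this row, and its promoter is known to lack the conserved sequence element that most other members carry. No separate role is established for most single beta genes, so they are given in cluster order or by the size of their difference.

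Arrays of one group correlated at 0.985 to 0.992 over all tested probe sets. S100a5 was higher in GFP-positive than in GFP-negative cells by 1.88 ± 0.13 in citrus and 1.91 ± 0.13 in vehicle (log2 difference ± SE), with limma adjusted p = 8.6e-09 and 8.4e-09. The mature neuron marker genes averaged 15.91 to 16.44 log2 expression per array, in the upper range of a scale whose highest value per array was 19.75 to 19.90. This held in both gates, with 15.92 to 16.20 in citrus and 15.91 to 16.16 in vehicle GFP-negative arrays. Omp, among these markers, differed between the gates by 0.18 ± 0.14 in citrus and 0.27 ± 0.14 in vehicle (limma adjusted p = 0.40 and 0.19). Of 12 measured myeloid and lymphoid marker genes, 12 were lower in GFP-positive cells in citrus and 12 in vehicle. Of all tested probe sets 10.8% and 9.97% were lower by that measure (limma adjusted p under 0.05). Arrays of a group were separate pools of mice, so p-values within a gate measure the spread between pools. In pooled cells, fewer cells that use a gene and less RNA of it per cell cannot be told apart.

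Measured against the arrays' negative-control probes, most beta protocadherin probe sets gave a low signal. The 95th percentile of 5222 negative-control probes was 8.75 to 9.71 log2 units per array, and their median was 4.84 to 5.37. On all 16 arrays 14 of the 20 members lay below that 95th percentile. Pcdhb9, Pcdhb14, Pcdhb16, Pcdhb17 and Pcdhb20 exceeded it on some arrays, Pcdhb14 on 13 of them. Pcdhb1 alone exceeded it on all 16, with 15.14 to 16.02 log2 units.

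**Figure D1:**
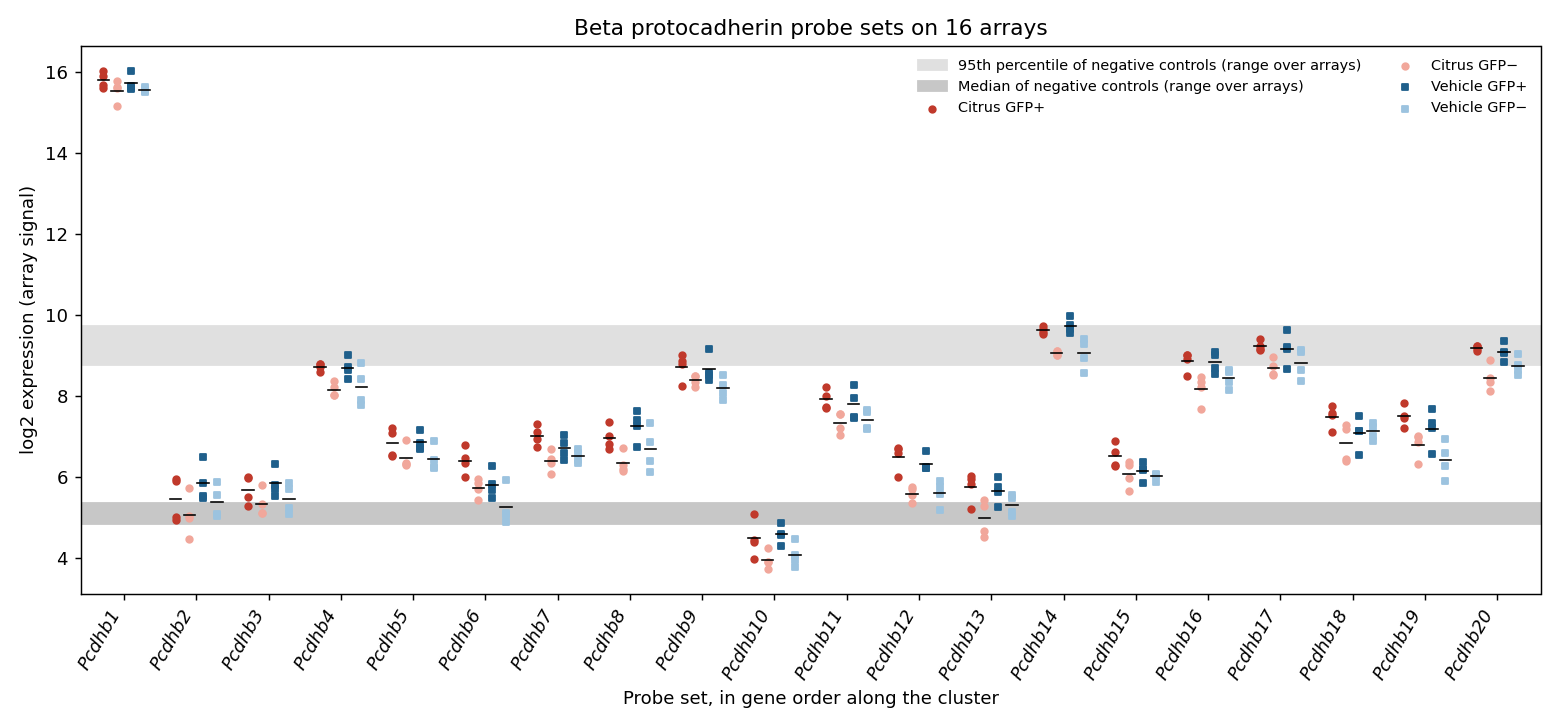
Log2 expression (vertical axis, array signal) of the 20 beta protocadherin probe sets in gene order (horizontal axis), with 4 arrays per group as points and the group mean as a black bar. Grey bands give the range over arrays of the 95th percentile (upper) and the median (lower) of negative-control probes. Pcdhb1 lies between 15.14 and 16.02, and 14 members lie below the upper percentile on every array.

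Signals of different probe sets depend on their probes, so the order of these levels is not an order of mRNA amounts. Beta genes are also close copies of one another, and signal that one probe set took from the mRNA of a neighbouring gene cannot be told apart here. For members below the negative-control percentile in both groups, a log2 difference is one between weak signals, and no fold change is given.

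In mice exposed to citrus, some of the beta protocadherins were higher in GFP-positive cells. Of 20 members 6 passed the threshold of adjusted p under 0.05, all of them upward, namely Pcdhb12, Pcdhb13, Pcdhb20, Pcdhb16, Pcdhb7 and Pcdhb14, whereas 7.44% of all tested probe sets passed upward and 10.8% downward. At an unadjusted p under 0.05, 15 members were higher and 0 lower, against 17% and 13.8% of tested probe sets. The difference was positive for all 20 members, as it was for 65.4% of tested probe sets, and ran between 0.27 and 0.91. Their median was 0.57, against 0.13 over all tested probe sets. In 10 members every GFP-positive array exceeded every GFP-negative array, against 11.7% of all tested probe sets, and in 0 members the reverse held, against 11%.

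Pcdhb12 had the largest difference of the 20. It read 6.01, 6.69, 6.58 and 6.72 in citrus GFP-positive arrays, against 5.55, 5.71, 5.75 and 5.36 in citrus GFP-negative arrays. The groups did not overlap, and the difference was 0.91 ± 0.19 (SE), with limma adjusted p = 0.0019. Pcdhb20 had 9.10, 9.24, 9.23 and 9.16 in citrus GFP-positive arrays, against 8.45, 8.89, 8.34 and 8.12 in citrus GFP-negative arrays. Its GFP-positive arrays lay close together and above all GFP-negative ones, with a difference of 0.74 ± 0.17 and limma adjusted p = 0.0048. Pcdhb16 had 8.50, 9.02, 9.02 and 8.92 in citrus GFP-positive arrays, against 8.22, 8.33, 8.46 and 7.68 in citrus GFP-negative arrays. Here the lowest GFP-positive array was only just above the highest GFP-negative one, and the difference was 0.69 ± 0.19 (limma adjusted p = 0.018).

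Pcdhb7 and Pcdhb14 also had groups that stayed apart in citrus. Pcdhb7 read 6.93, 7.30, 6.74 and 7.10 in GFP-positive arrays, against 6.35, 6.45, 6.69 and 6.08 in GFP-negative arrays, a difference of 0.63 ± 0.18 (limma adjusted p = 0.017). Pcdhb14, which exceeded the negative-control percentile on every citrus array, read 9.53, 9.73, 9.64 and 9.58 in GFP-positive arrays, against 9.12, 9.11, 9.01 and 9.02 in GFP-negative arrays. Arrays of one gate were tight here, and the difference of 0.56 ± 0.17 passed with limma adjusted p = 0.028. Pcdhb13 passed although its groups overlapped. It read 5.83, 5.94, 5.21 and 6.02 in GFP-positive arrays, against 5.30, 5.43, 4.53 and 4.66 in GFP-negative arrays, with a difference of 0.77 ± 0.24 (limma adjusted p = 0.029). The readings of 4.53 and 4.66 lay below even the negative-control median of their arrays, 4.88 in both. Pcdhb7, Pcdhb12 and Pcdhb13 lay below the negative-control percentile on every array.

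Of the 14 members that did not pass, Pcdhb6 and Pcdhb11 came closest in citrus (limma adjusted p = 0.055 and 0.059). Pcdhb1, the one probe set far above the negative controls, differed by 0.27 with a 95% interval of −0.07 to 0.60. Arrays of both gates that carry one replicate number and stimulus were treated as a shared pool of mice. With that pool as a random block, 12 members passed in citrus, all upward, against 10.5% of all tested probe sets, and the 6 that joined were Pcdhb4, Pcdhb6, Pcdhb11, Pcdhb17, Pcdhb18 and Pcdhb19. The count of 6 became 3 without citrus replicate 2 and 2 without citrus replicate 4.

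**Figure D2:**
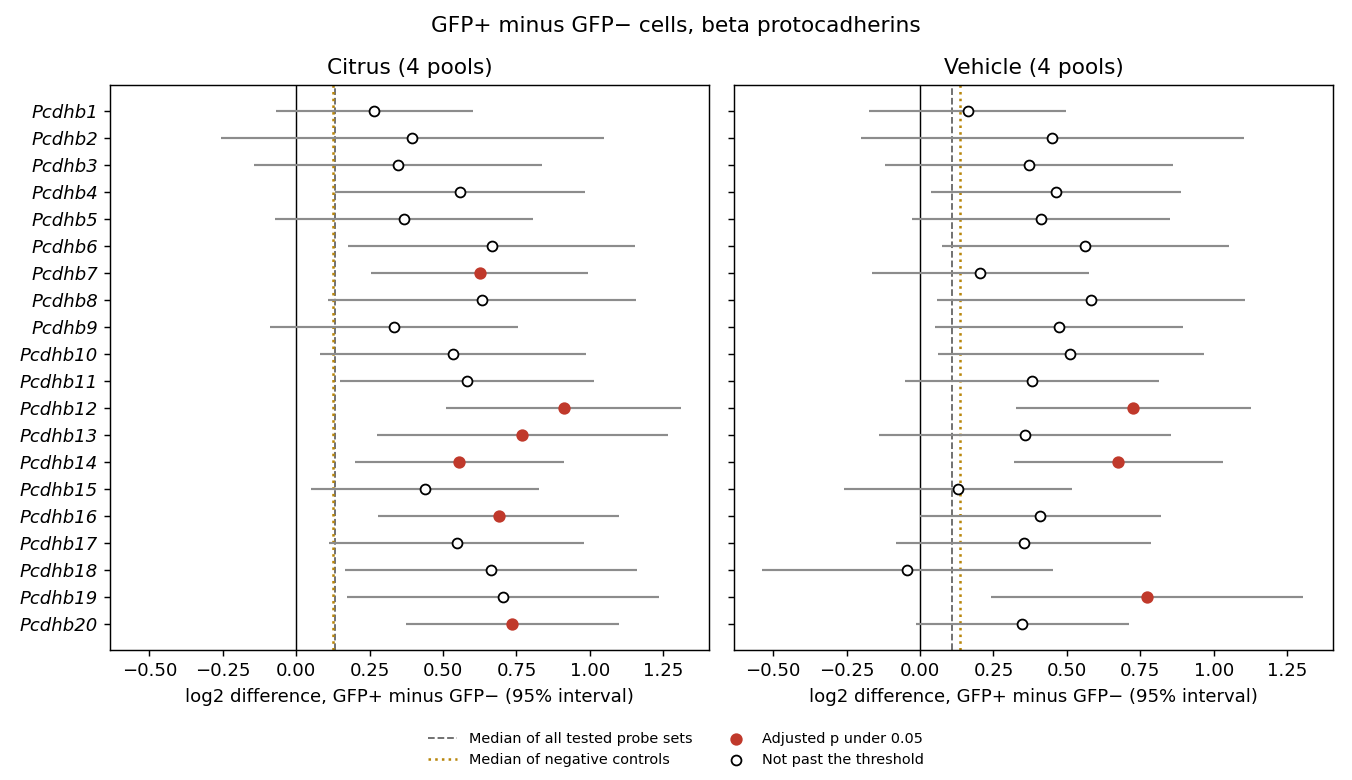
Log2 difference between GFP-positive and GFP-negative cells with its 95% interval (horizontal axis) for the 20 beta protocadherins (vertical axis), in citrus on the left and in vehicle on the right, from 4 pools each. Filled points passed the threshold, 6 in citrus and 3 in vehicle. The dashed line is the median of all tested probe sets (0.13 in citrus and 0.11 in vehicle), and the dotted line that of negative-control probes.

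The vehicle pools, which share no array with the citrus pools, gave differences of the same direction for nearly all members. Both comparisons came from 1 fit, however, so the p-values in vehicle also rest on the spread of the citrus arrays. Pcdhb12, Pcdhb14 and Pcdhb19 passed upward, 3 of 20 members against 9.05% of all tested probe sets, and 0 passed downward, against 9.97%. At an unadjusted p under 0.05, 8 members were higher and 0 lower, against 17.8% and 13.5% of tested probe sets. The difference was positive for 19 members, against 62.2% of tested probe sets, with a median of 0.41 against 0.11 over all tested probe sets. Pcdhb18 was the exception, at −0.04 with a 95% interval of −0.54 to 0.45. GFP-positive arrays all lay higher in 2 members, Pcdhb12 and Pcdhb14, against 10.9% of all tested probe sets, and all lay lower in 0, against 9.96%. In both stimuli together 19 members had a positive difference, against 52.7% of tested probe sets.

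Pcdhb14 read 9.75, 9.97, 9.65 and 9.55 in vehicle GFP-positive arrays, against 9.29, 8.95, 9.42 and 8.56 in vehicle GFP-negative arrays. Every GFP-positive array was the higher one, by 0.68 ± 0.17 on average (limma adjusted p = 0.0086). Pcdhb12 read 6.22, 6.21, 6.64 and 6.26 in vehicle GFP-positive arrays, against 5.75, 5.58, 5.90 and 5.19 in vehicle GFP-negative arrays, a difference of 0.73 ± 0.19 (limma adjusted p = 0.012). Replicate 3 gave the highest GFP-positive value, and the groups stayed apart. Pcdhb19 read 6.57, 7.34, 7.20 and 7.67 in vehicle GFP-positive arrays, against 6.26, 5.89, 6.59 and 6.94 in vehicle GFP-negative arrays. Its groups overlapped, and its difference of 0.77 ± 0.25 passed with limma adjusted p = 0.039. In citrus the same probe set had a difference of 0.70 ± 0.25, which did not pass (limma adjusted p = 0.063) although its groups did not overlap there.

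Pcdhb12 and Pcdhb14 were the 2 of 20 members past the threshold in both stimuli, against 4.27% of all tested probe sets. With the pool as a block the same 3 members passed in vehicle, against 12.1% of all tested probe sets. Leaving out vehicle replicate 1 gave a count of 5, and leaving out vehicle replicate 4 gave 1, Pcdhb14.

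The difference was also taken within single pools. Subtracting the GFP-negative from the GFP-positive array of each pool, 8 members were higher in GFP-positive cells in all 8 pools: Pcdhb9, Pcdhb12, Pcdhb13, Pcdhb14, Pcdhb16, Pcdhb17, Pcdhb19 and Pcdhb20. Over all tested probe sets 13.5% did so, and over negative-control probes 1.4%. A further 6 members were higher in 7 pools and the remaining 6 in 6 pools. The number of members that were higher in a pool was 15, 19, 19 and 20 in the citrus pools and 16, 15, 20 and 18 in the vehicle pools. Of all tested probe sets, 56.2%, 59.0%, 60.6% and 59.7% were higher in the citrus pools and 59.2%, 56.2%, 55.1% and 58.9% in the vehicle pools. The exceptions included Pcdhb2 at −0.80 in citrus pool 1 and Pcdhb18 at −0.79 in vehicle pool 2.

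**Figure D3:**
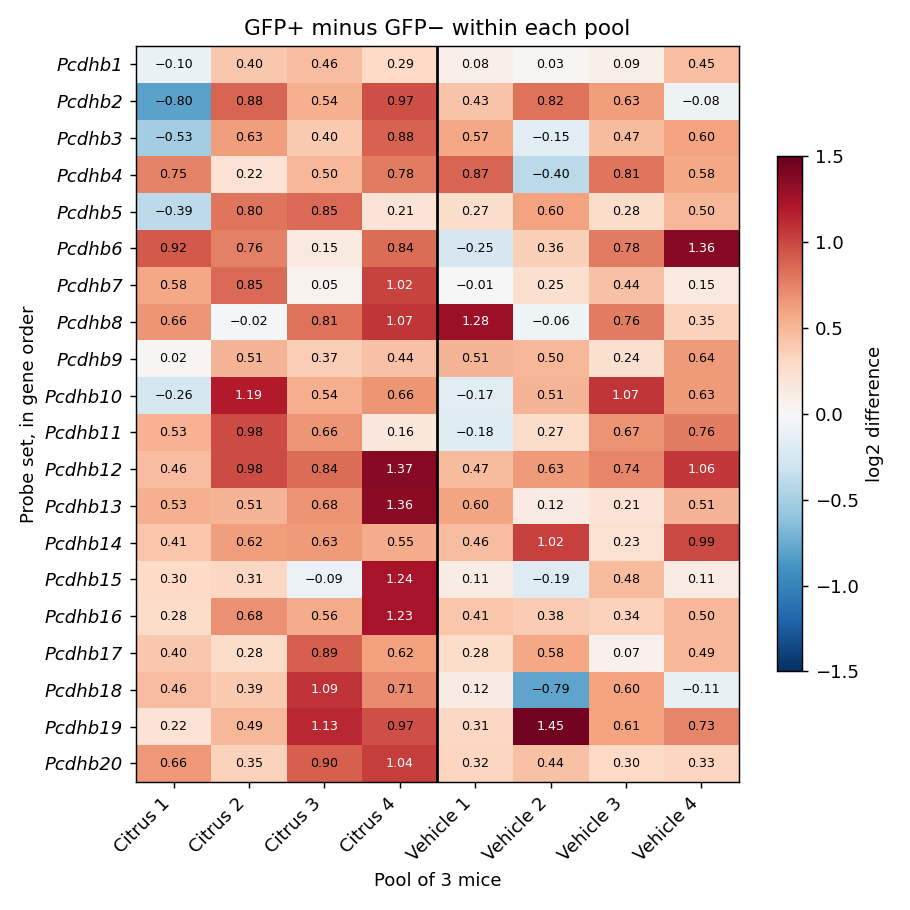
Log2 difference between the GFP-positive and the GFP-negative array of each pool (colour and printed value) for the 20 beta protocadherins in gene order (vertical axis), in 4 citrus and 4 vehicle pools of 3 mice (horizontal axis). Red cells are higher in GFP-positive cells. The median over members was 0.41, 0.57, 0.60 and 0.86 in the citrus pools and 0.31, 0.37, 0.47 and 0.50 in the vehicle pools.

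Other measures moved with this difference between the gates. Negative-control probes, taken by their names on the array, had a median difference between GFP-positive and GFP-negative cells of 0.13 in citrus and 0.14 in vehicle. Per pool their median ran between −0.01 and 0.20 in citrus and between −0.07 and 0.38 in vehicle, below the members' median in every pool. The 13191 tested probe sets under the negative-control percentile in all 4 groups had medians of 0.12 in citrus and 0.09 in vehicle. The median of the 20 members was the larger in both stimuli. Among the members, however, Pcdhb1, Pcdhb14, Pcdhb17 and Pcdhb20 were not under that level in all groups. Between their 5th and 95th percentiles, single negative-control probes differed by −0.78 to 0.93 in citrus and by −0.76 to 0.95 in vehicle. The differences of all 20 members lay inside these ranges.

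Marker genes were counted where they passed the threshold. Of all tested probe sets 7.44% passed upward and 10.8% downward in citrus, and 9.05% and 9.97% in vehicle. Mature neuron markers were higher in 3 of 12 genes in citrus and in 3 of 12 in vehicle, with medians of 0.35 and 0.28. Leaving out 1 pool at a time gave 1 to 4 in citrus and 2 to 3 in vehicle, and the pool as a block gave 5 and 3. The log2 of their summed signal was 21.51 to 21.60 in citrus GFP-positive arrays, against 21.23 to 21.49 in citrus GFP-negative arrays. In vehicle it was 21.45 to 21.62 in GFP-positive arrays, against 21.26 to 21.49 in GFP-negative arrays. White blood cell markers moved far more, and the other way. The log2 of the summed signal of 12 myeloid and lymphoid genes was 9.78 to 10.64 in citrus GFP-positive arrays, against 18.21 to 19.51 in citrus GFP-negative arrays, and 9.74 to 11.26 in vehicle GFP-positive arrays, against 18.74 to 19.61 in vehicle GFP-negative arrays. In GFP-positive cells 11 of these 12 genes in citrus and 10 in vehicle lay below the negative-control percentile on all 4 arrays. Immature neuron markers were lower in GFP-positive cells in 6 of 12 genes in citrus and in 6 of 12 in vehicle, with medians of −0.50 and −0.59. The log2 of their summed signal overlapped between the gates, however. It was 17.90 to 18.08 in citrus GFP-positive arrays, against 17.77 to 18.05 in citrus GFP-negative arrays. In vehicle it was 17.78 to 18.01 in GFP-positive arrays, against 17.91 to 18.19 in GFP-negative arrays. Of microvillous cell markers 7 of 7 were lower in citrus and 6 of 7 in vehicle, with medians of −2.59 and −2.37. Of markers of dividing and globose basal cells 5 of 6 were lower in either stimulus, with medians of −1.74 and −1.58. Bowman gland markers were lower in 4 of 6 genes in citrus and 2 of 6 in vehicle, and sustentacular cell markers in 1 and 0 of 8. The part of these cells in the difference of the beta genes was not tested.

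The scaling of the arrays decided how many members passed. With each array centred on its mature neuron markers, which takes out the shift of those markers, the median of the 20 members became 0.22 in citrus and 0.11 in vehicle. Pcdhb12 then was the only member that passed in citrus, at 0.56, and 0 of 20 passed in vehicle by limma, against 2.69% and 2.66% of all tested probe sets called upward. Positive differences remained in 17 members in citrus and 16 in vehicle. Centring on the median of the negative controls left medians of 0.43 and 0.25, with 2 members past the threshold in citrus, Pcdhb12 and Pcdhb20, and 0 in vehicle, against 3.4% and 3.19% of all tested probe sets.

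Centring on the median of all tested probe sets acted the other way. It raised the medians to 0.90 in citrus and 0.69 in vehicle, and 19 and 17 members passed, all upward. That scaling shifted the median of all tested probe sets by 0.33 in citrus and 0.28 in vehicle, and 46.6% and 36.2% of all tested probe sets then passed upward. The mature neuron scaling shifted it by −0.35 and −0.30, and the negative-control scaling by −0.14 and −0.16. Of all calls, the share that was higher in GFP-positive cells was 40.8% in citrus and 47.6% in vehicle as deposited. It was 13.4% and 14.3% with the mature neuron scaling, 22% and 21.5% with the negative-control scaling, and 84.2% and 82% with the median scaling.

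**Figure D4:**
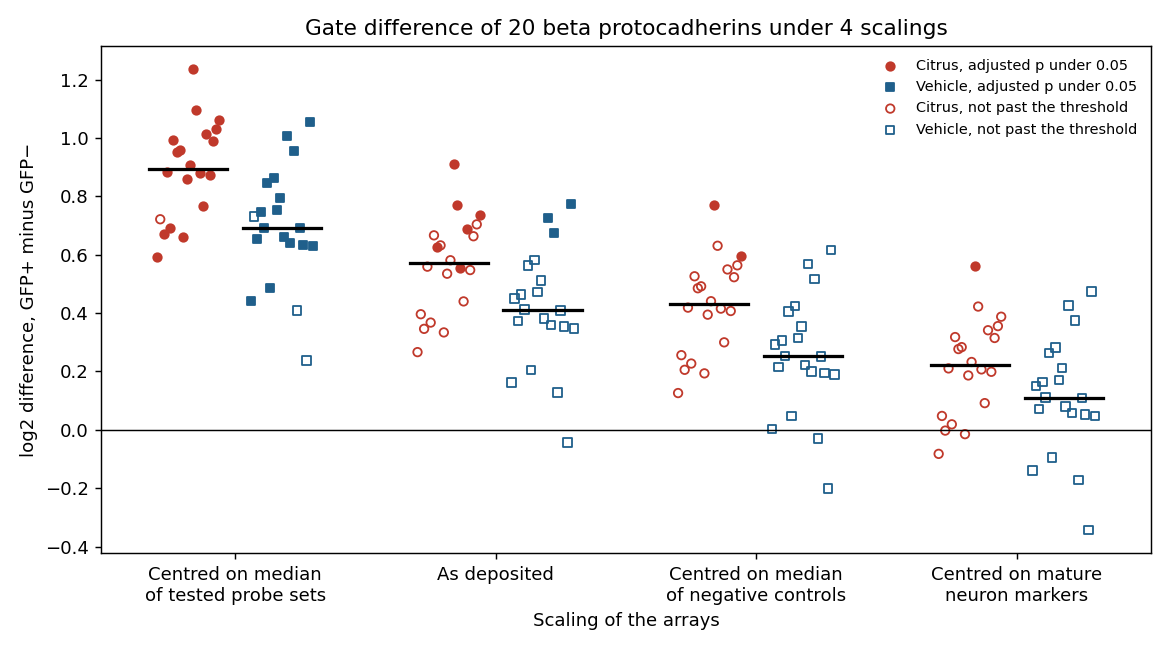
Log2 difference between GFP-positive and GFP-negative cells (vertical axis) of the 20 beta protocadherins in citrus (circles) and vehicle (squares) under 4 scalings of the arrays (horizontal axis). Filled symbols passed the threshold and black bars are medians, which were 0.90, 0.57, 0.43 and 0.22 in citrus and 0.69, 0.41, 0.25 and 0.11 in vehicle from left to right.

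The second question was whether the odour changed these genes. Between citrus and vehicle 0 of 20 members passed by limma in GFP-positive cells, where 0.0204% of tested probe sets passed upward and 0% downward. In GFP-negative cells also 0 of 20 passed, against 0.0102% upward and 0.00511% downward. At an unadjusted p under 0.05, 1 member was higher in GFP-positive cells, Pcdhb6, and 0 were lower, against 2.06% and 1.99% of tested probe sets. In GFP-negative cells 0 were higher or lower by that measure, against 2.97% and 2.91%. Citrus and vehicle arrays stayed apart in 0 members, where 1.47% of tested probe sets did so upward and 1.26% downward in GFP-positive cells, and 1.26% and 1.57% in GFP-negative cells. The median difference was 0.08 in GFP-positive cells, with 14 members positive against 51.4% of tested probe sets, and −0.10 in GFP-negative cells, with 6 positive against 52%. With arrays centred on the negative controls these medians were 0.27 and 0.07, so the sign in GFP-negative cells depended on the scaling.

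Pcdhb6 had the smallest p in both gates. It read 6.36, 6.47, 5.999 and 6.79 in citrus GFP-positive arrays, against 5.68, 5.48, 5.84 and 6.26 in vehicle GFP-positive arrays, a difference of 0.59 with a 95% interval of 0.10 to 1.08. In GFP-negative cells it read 5.43, 5.71, 5.85 and 5.95 in citrus, against 5.93, 5.12, 5.06 and 4.90 in vehicle, a difference of 0.48 with an interval of −0.0045 to 0.97. The groups overlapped in both gates, and limma adjusted p was 1.00 for the GFP-positive gate and 0.85 for the GFP-negative gate. In GFP-positive cells Pcdhb15 (0.37, interval −0.02 to 0.76) and Pcdhb18 (0.41, interval −0.09 to 0.91) came next. In GFP-negative cells Pcdhb20 (−0.30, interval −0.66 to 0.06) and Pcdhb19 (0.38, interval −0.15 to 0.91) did. The intervals given for Pcdhb6, Pcdhb15, Pcdhb18 and Pcdhb19 leave room for differences of the size these members had between the gates. For Pcdhb12 and Pcdhb14 they did not. Pcdhb12 had intervals of −0.23 to 0.57 in GFP-positive and −0.42 to 0.38 in GFP-negative cells, with gate differences of 0.91 and 0.73. Pcdhb14 had −0.46 to 0.25 and −0.34 to 0.37, with gate differences of 0.56 in citrus and 0.68 in vehicle.

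**Figure D5:**
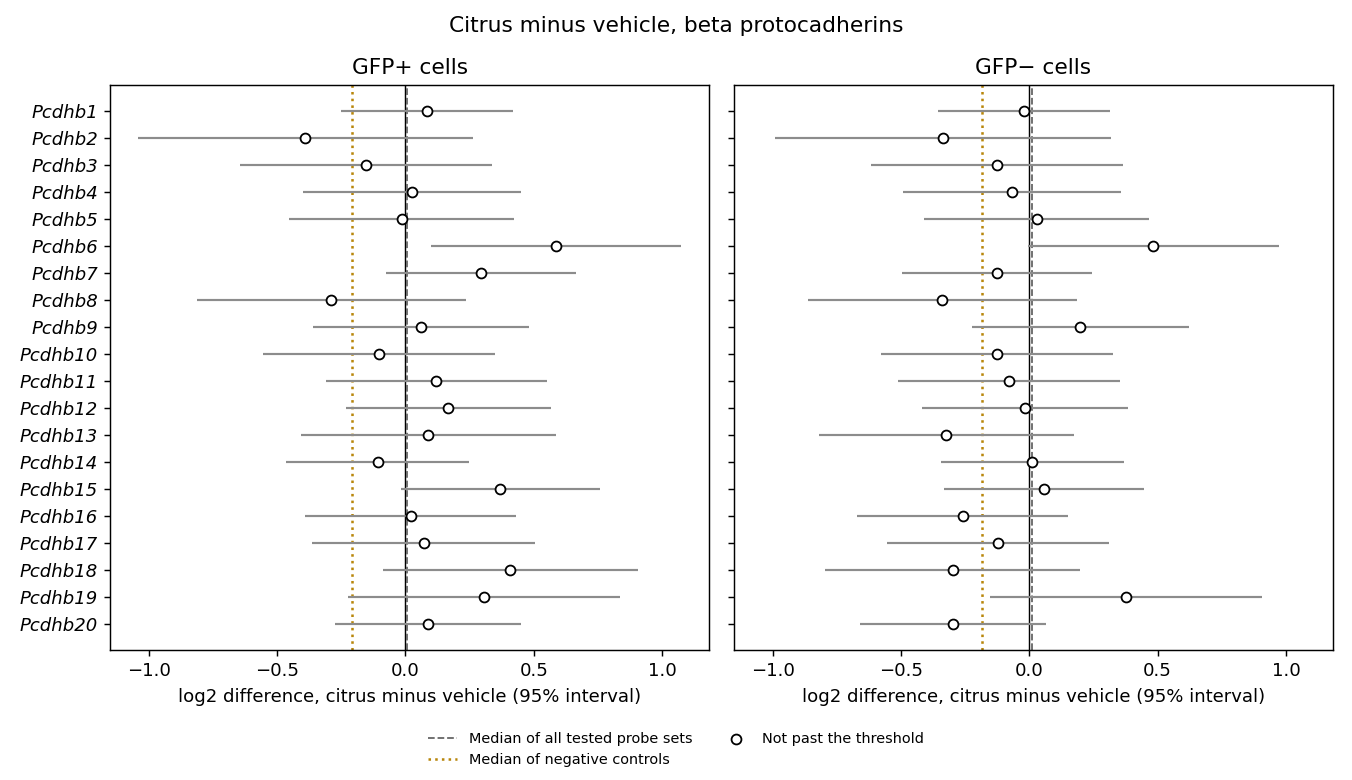
Log2 difference between citrus and vehicle with its 95% interval (horizontal axis) for the 20 beta protocadherins (vertical axis), in GFP-positive cells on the left and GFP-negative cells on the right, from 4 arrays per group. No point passed the threshold. The dashed line is the median of all tested probe sets (0.01 in both gates) and the dotted line that of negative-control probes (−0.21 and −0.19).

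Whether citrus changed the difference between the gates was tested directly as the citrus gate difference minus the vehicle gate difference. Limma called 0 of 20 members, and 0% of all tested probe sets in either direction. At an unadjusted p under 0.05, 1 member was higher, Pcdhb18, and 0 were lower, against 1.92% and 1.77% of tested probe sets. The value was positive in 14 members, against 48.9%. It differed between the gates by 0.66 ± 0.24 in citrus and by −0.04 ± 0.24 in vehicle, and the difference of these was 0.71 with a 95% interval of 0.0046 to 1.41 (limma adjusted p = 1.00). Its arrays read 7.75, 7.58, 7.54 and 7.11 in citrus GFP-positive, 7.29, 7.19, 6.45 and 6.40 in citrus GFP-negative, 7.14, 6.55, 7.50 and 7.14 in vehicle GFP-positive and 7.02, 7.35, 6.90 and 7.24 in vehicle GFP-negative cells. Pcdhb7 (0.42, interval −0.10 to 0.94) and Pcdhb20 (0.39, interval −0.12 to 0.90) followed. The larger median and count of calls in citrus than in vehicle were thus not shown to differ for any member.

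Of the protocadherins outside the clusters, those past the threshold were all higher in GFP-positive cells in citrus, but went both ways in vehicle. Of 12 measured genes of that list, GFP-positive cells had 5 higher and 0 lower in citrus, and 2 higher and 1 lower in vehicle. The shares of all tested probe sets were 7.44% higher and 10.8% lower in citrus, and 9.05% and 9.97% in vehicle. Pcdh8, which acts in the turnover of cadherin adhesion, read 11.36, 9.54, 11.50 and 11.13 in citrus GFP-positive arrays, against 8.87, 8.79, 9.75 and 9.17 in citrus GFP-negative arrays. The groups overlapped at one array, and the difference was 1.74 ± 0.37 (limma adjusted p = 0.0020), with 1.03 ± 0.37 in vehicle (0.058, and 0.028 with the pool as a block). Pcdh7 was higher by 1.37 ± 0.23 in citrus and 0.79 ± 0.23 in vehicle (limma adjusted p = 0.00026 and 0.023). Pcdh10, a protocadherin of olfactory axon sorting, was higher by 1.84 ± 0.38 in citrus and 1.19 ± 0.38 in vehicle (limma adjusted p = 0.0018 and 0.037). It averaged 12.20 ± 0.39 in citrus GFP-positive and 10.36 ± 0.69 in citrus GFP-negative arrays, against 7.98 ± 0.80 and 6.79 ± 0.51 in the GFP-positive and GFP-negative arrays of vehicle mice (SD, n = 4 each). All 8 vehicle arrays lay below the negative-control percentile, so its vehicle difference is one between weak signals. It also passed between citrus and vehicle, upward in GFP-positive and in GFP-negative samples (limma adjusted p = 6.5e-05 and 0.00051). In vehicle Pcdh7 and Pcdh10 did not pass with arrays centred on the mature neuron markers (0.13 and 0.085) or on the negative controls (0.094 and 0.087). Leaving out vehicle replicate 1, 3 or 4 also ended both calls in vehicle, with limma adjusted p of 0.081, 0.11 and 0.14 for Pcdh7 and of 0.086, 0.076 and 0.19 for Pcdh10. Pcdh10 also missed the threshold in vehicle without citrus replicate 2 or 3 (0.051 and 0.054). Pcdh19 was lower in vehicle by −0.63 ± 0.21 (limma adjusted p = 0.043, and 0.19 with arrays centred on the median of tested probe sets) and stood at −0.09 ± 0.21 in citrus. Its call in vehicle was lost without vehicle replicate 1, 2 or 4 (0.17, 0.23 and 0.064) and without citrus replicate 2 (0.061). The median of the list was 0.48 in citrus and near 0 in vehicle, against 0.57 and 0.41 for the beta cluster.

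Genes that act on the protocadherin clusters were also compared between the gates. Of 24 measured genes for the architecture, methylation and choice of protocadherin promoters, GFP-positive cells had 0 higher and 2 lower in citrus, and 0 higher and 3 lower in vehicle. These counts are near the shares of all tested probe sets given above. Smchd1, a chromatin protein that silences protocadherin clusters and the inactive X chromosome, was lower by −0.83 ± 0.22 in citrus and −1.23 ± 0.22 in vehicle (limma adjusted p = 0.012 and 0.00053). In citrus it missed the threshold without citrus replicate 2 or 4 (0.061 and 0.069) and with arrays centred on the median of tested probe sets (0.057). Rest, a repressor of neuronal genes, was lower by −1.40 ± 0.27 and −1.19 ± 0.27 (limma adjusted p = 0.00087 and 0.0041), and both Rest and Smchd1 lay below the negative-control percentile on all 16 arrays. Nipbl, the loader of cohesin, was lower in vehicle by −0.51 ± 0.16 (limma adjusted p = 0.037), but not past the threshold with arrays centred on the median of tested probe sets (0.26). It was also lost without vehicle replicate 1, 2 or 4 (0.055, 0.21 and 0.14) and without citrus replicate 2 or 4 (0.051 and 0.055), and gained in citrus with the mature neuron scaling (−0.55, adjusted p = 0.031).

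Of 22 measured proteases, kinases and actin regulators reported as partners of clustered protocadherins, 2 were higher and 3 lower in citrus, and 1 was higher and 4 were lower in vehicle. Here too, the counts in citrus are near the shares of all tested probe sets. Adam10, a protease that sheds protocadherin ectodomains, was lower by −0.92 ± 0.18 in citrus and −0.86 ± 0.18 in vehicle (limma adjusted p = 0.00085 and 0.0018). Marcks, an actin regulator downstream of protein kinase C, was lower by −2.08 ± 0.21 and −2.20 ± 0.21 (limma adjusted p = 8.9e-07 and 5.5e-07). Ptk2b, a kinase that clustered protocadherins inhibit, was lower by −0.81 ± 0.23 and −1.03 ± 0.23 (limma adjusted p = 0.018 and 0.0035), and in citrus it did not pass with arrays centred on the median of tested probe sets (0.073) or without citrus replicate 3 or 4 (0.092 and 0.075). Wasf1, of the WAVE complex, was higher in citrus by 0.64 ± 0.19 (limma adjusted p = 0.021). It missed the threshold without citrus replicate 2, 3 or 4 (0.056, 0.098 and 0.12), with the mature neuron scaling (0.37) and with the negative-control scaling (0.18). Ptk2b and Wasf1 lay below the negative-control percentile on all 16 arrays. Many cells of the GFP-negative gate besides neurons use such genes, and the white blood cell markers given above were lower in the same GFP-positive arrays. The part of those cells in these differences was not tested.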

How the data were processed

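RNA of 16 pools of sorted cells was hybridised to Clariom S mouse arrays from 50 to 100 ng of total RNA, per the labels' protocols. For 28846 probe sets the authors deposited log2 expression values in 1 table. The submitters' processing notes name Affymetrix Expression Console, and no version or genome build is given in the sources used here. Per the labels the summary was SST-RMA. Its signal space transformation may widen differences, which therefore need not be log2 ratios of mRNA. Values were used as deposited, and 0 columns of other samples were present.

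Symbols came from the platform annotation: 19572 probe sets had 1 symbol, 0 had several, 2634 had none here, and 6640 were controls, 5222 of them negative. All 19572 matched the RefSeq gene table (GRCm38.p6) by Entrez identifier. Of the symbols with several probe sets in a marker or pathway list, the probe set with the highest mean was used. Arrays give signal and no read depth, and the number of arrays limits the precision.

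Limma 3.58.1 in R 4.3.3 was fitted to all 19572 probe sets and 16 arrays, with 1 mean per group and no pool term (empirical Bayes, two-sided), and tested on simulated data. It gave 5 comparisons, adjusted by Benjamini-Hochberg over all probe sets, with a threshold of 0.05. Errors beside differences are standard errors, and intervals are 95%. Members past the threshold, the 3 highest and the lowest by mean, and the 3 with the smallest p where none passed were named, and up to 4 genes past the threshold per pathway list. The rule also asked for 5 C-type isoforms, which have no named probe set here. Members named beyond the rule were chosen after their values were seen. The members and lists were chosen with earlier results of these data known. Alternatives were 2 fits with a replicate block, 3 scalings, another prior, a filter on dim probe sets, a fit of only the groups compared, and leaving out each pool. The negative-control scaling, and the pool block together with the mature neuron scaling, were chosen after the data were seen.

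The 24 mice make 8 pools of 3, so both gates of one number and stimulus were taken as 1 pool, although no label says so directly. Once group means were subtracted, these arrays correlated at 0.075 to 0.275 across probe sets. Plots used matplotlib 3.10.9 under Python 3.11.15.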

Additional observations from a re-analysis of the deposited data

Results flagged for a closer look

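Within 80 sets of 4 arrays (20 members in 4 groups), 4 held 1 array whose gap to its nearest neighbour was above Dixon's 95% critical value. Chance alone gives about 1 in 20 such sets. In vehicle GFP-positive cells Pcdhb1 read 16.02 in replicate 4, with 15.58 to 15.65 in the remaining replicates. Also in vehicle GFP-positive cells Pcdhb12 read 6.64 in replicate 3, against 6.21 to 6.26 on the others. In citrus GFP-negative cells Pcdhb5 read 6.92 in replicate 1, against 6.29 to 6.36 on the others. In vehicle GFP-negative cells Pcdhb15 read 5.89 in replicate 3, against 6.05 to 6.08 on the others.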

How the results depend on the processing

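The count of beta protocadherins that passed between the gates was 6 in citrus and 3 in vehicle, and every call in every setting tried was upward. With the pool as a replicate block it was 12 in citrus and 3 in vehicle, and that block changed no call of a member in the other comparisons. With the replicate number as a block it was 8 in citrus and 3 in vehicle. It was 19 and 17 with arrays centred on the median of tested probe sets. With arrays centred on mature neuron markers, with or without the pool as a block, it was 1 and 0. It was 2 and 0 with arrays centred on negative controls. With 6381 probe sets above the negative-control level, which kept 4 members (Pcdhb1, Pcdhb14, Pcdhb17 and Pcdhb20), it was 2 and 1. Pcdhb17 and Pcdhb20 passed that filter only through citrus GFP-positive cells, where they were high, so the count in citrus supports nothing. Fitting only the groups compared gave 10 and 2, and leaving out 1 pool at a time gave 2 to 9 in citrus and 1 to 5 in vehicle. A trended and robust prior gave the main counts. Between citrus and vehicle, and for the change of the gate difference, 0 members passed by limma under all of these settings. The median difference between the gates stayed positive in all of them, from 0.22 to 0.90 in citrus and from 0.11 to 0.69 in vehicle. No result changed sign while past the threshold. The cause of these moves was not tested, and some settings also had fewer probe sets or arrays in a fit. Signal near the negative controls limits what 14 of the 20 probe sets can show.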

Other observations

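Beta protocadherins varied together only loosely from array to array. After group means were removed, the 190 pairs of members had a median correlation of 0.17 over 16 arrays, with a range of −0.70 to 0.84, and 138 pairs were positive. The 19 pairs of neighbouring genes had a median of 0.16 and the 55 pairs at least 10 genes apart one of 0.17. Pcdhb17 and Pcdhb20 had the highest correlation (0.84), then Pcdhb17 and Pcdhb19 (0.78) and Pcdhb2 and Pcdhb3 (0.76), and Pcdhb4 and Pcdhb14 had the lowest (−0.70). These correlations share the arrays' scaling, and probe sets of close copies may share signal. No correlations of other pairs of probe sets are given here, so these values are not shown to be particular to the cluster. The median of negative controls correlated with single members at −0.39 (Pcdhb14) to 0.70 (Pcdhb7) over the same arrays.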
